A study of Homo sapiens with 6 samples.

Results

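A group of 6 genes of protein degradation was followed in SW780 cells, an established line from a human bladder cancer, used in the study as a luminal type. They were UBD, which encodes the ubiquitin-like modifier FAT10, PSMB8, PSMB9 and PSMB10, which encode the 3 inducible catalytic subunits of the immunoproteasome, and PSME1 and PSME2, which encode the PA28 alpha and PA28 beta subunits of a proteasome activator. The members were taken by symbol, 6 of 16390 genes listed in each library. The group was chosen by its counts in RC48 against Control cells, so these values are described below without a test.

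RNA was sequenced from 3 libraries of Control SW780 cells and 3 libraries of SW780 cells exposed to RC48 at 25 µg/ml. RC48 (disitamab vedotin) is an antibody–drug conjugate that binds the receptor ERBB2, and its payload, monomethyl auristatin E, blocks microtubules. The exposure time and the treatment of the Control cells are not given in the sources used here, and no antibody without the drug or free drug was compared. Both groups are a single cell line. The labels number the replicates without saying that they came from separate cultures, so p-values measure the spread between these libraries, which may be technical.

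FAT10 is a pair of ubiquitin-like domains in a row. It is joined to proteins by the activating enzyme UBA6 and the conjugating enzyme UBE2Z, and takes them to the proteasome. PSMB8, PSMB9 and PSMB10 take the places of the standard catalytic subunits PSMB5, PSMB6 and PSMB7 in newly assembled proteasomes, which changes the peptides that are cut. PA28 caps the end of the core particle, and the peptides reach MHC class I molecules through the transporter of TAP1 and TAP2. Interferon gamma and tumour necrosis factor are the known inducers of UBD, and interferons are the known inducers of the other members, acting through transcription factors such as IRF1 and the interferon-stimulated response element (ISRE).

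UBD, PSMB8 and PSMB9 lie on chromosome 6, in GRCh38 at chr6:29555515-29559732, chr6:32840717-32844679 and chr6:32854192-32859851. PSME1 (chr14:24136194-24138962) and PSME2 (chr14:24143365-24146610) are close neighbours on chromosome 14, and PSMB10 (chr16:67934506-67936850) is on chromosome 16. All 6 were matched to RefSeq promoter windows of build GRCh38.p14, which run from 250 bases before to 50 bases after a transcript start, and the window was searched on both strands. The letters of the ISRE were taken as GAAANNGAAA, those of the gamma-activated site (GAS) as TTCNNNGAA, and the NF-κB consensus is named only. The sequences below are shown because they are the matches of the members to elements of the inducing pathways. Each is written 5′ to 3′ on the strand of its gene, with the match in capitals.
UBD, NF-κB consensus, -53 to -44, chr6:29559761-29559800, minus strand: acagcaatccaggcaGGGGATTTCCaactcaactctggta
PSMB8, GAS, -65 to -57 of the downstream start, chr6:32844089-32844127, minus strand: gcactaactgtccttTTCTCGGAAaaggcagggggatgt
PSMB8, ISRE, -4 to 6 of the downstream start, chr6:32844027-32844066, minus strand: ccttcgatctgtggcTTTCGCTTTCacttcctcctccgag
PSMB10, ISRE, -21 to -12, chr16:67936847-67936886, minus strand: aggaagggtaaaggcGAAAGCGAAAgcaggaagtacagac
PSME1, ISRE, 6 to 15, chr14:24136184-24136223, plus strand: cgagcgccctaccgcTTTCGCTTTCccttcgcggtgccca
PSME2, ISRE, -28 to -19, chr14:24146614-24146653, minus strand: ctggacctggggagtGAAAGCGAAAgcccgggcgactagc

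The ISRE match had the same letters in 4 members, read as GAAAGCGAAA in PSMB10 and PSME2 and as its reverse complement in PSMB8 and PSME1. No match to the ISRE lay in the UBD window, and none of the searched letters lay in the PSMB9 window. PSMB8 has 2 RefSeq windows, and its matches lay in the one of the downstream start. Of 35116 windows of the same length, 3.57% held an ISRE match, 7.66% a GAS match and 11.27% an NF-κB match, while the exact letters GAAAGCGAAA, which were searched after they had been seen in the members, stood in 35 windows (0.10%). A match describes the letters only and not binding.

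The estimated counts of a library summed to between 16453233 and 17988030. Over all genes, the Spearman correlation of a gene's difference from the Control mean (log2 CPM) with the GC content of its transcript was 0.14, 0.23 and -0.24 in Control replicates 1, 2 and 3, and 0.75, -0.02 and 0.59 in RC48 replicates 1, 2 and 3. RC48 replicates 1 and 3 stood apart from the other libraries in this measure. The transcripts of the members were 53.2% (PSME1) to 60.1% (PSMB10) GC, except UBD with 43.5%, and values are therefore given both as CPM (counts scaled to a common library size by TMM) and as CPM after the GC trend of each library was removed. All 12 luminal markers looked at, among them GATA3, UPK2, KRT8 and KRT18, were above 0, and 10 were over 1 TPM (a level normalized for transcript length and depth) in every library. KRT20 fell, from 102 counts in all Control to 35 in all RC48 libraries (log2 fold change -1.55, adjusted p = 0.0489, edgeR). FOXA1, UPK1B and EPCAM, at -0.44, -0.44 and -0.49, were not called. With the GC correction KRT20 (-1.5, adjusted p = 0.0173), UPK1B (-0.38, adjusted p = 0.0486) and EPCAM (-0.48, adjusted p = 0.048, edgeR) were called lower. FOXA1 was not (-0.55, adjusted p = 0.0623, edgeR), and 3.72% of all genes were called lower.

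UBD was close to absent in Control cells and abundant in RC48-exposed cells. It had 0, 4 and 1 counts in Control replicates 1, 2 and 3, and 710, 743 and 965 counts in RC48 replicates 1, 2 and 3. Every RC48 library was thus far above every Control library. The 5 counts of all Control libraries against 2418 of all RC48 libraries gave a ratio per total counts of 460, with an exact 95% interval of 197 to 1417 that covers counting error only. The mean was 0.0969 ± 0.12 CPM in Control and 46.4 ± 6.32 CPM in RC48 (SD, n = 3), a log2 fold change of 8.80 with a standard error (SE) of 0.43. Here and below, the SE of an edgeR value is the absolute log2 fold change divided by the square root of its F statistic. It is an approximation, and for UBD it is likely too small. DESeq2, which fits an SE directly, gave 8.89 with an SE of 0.68. After the GC correction the RC48 libraries held 51.9, 39.0 and 55.1 CPM and the log2 fold change was 8.92. The size of the fitted value follows the few Control counts, and without Control replicate 2, which held 4 of the 5, it was 10.31.

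PSMB9, which replaces the standard subunit PSMB6, had the next largest difference among the members. Its level was 28.9, 30.6 and 28.1 CPM in Control replicates 1, 2 and 3, and 81.8, 39.1 and 45.9 CPM in RC48 replicates 1, 2 and 3. The groups did not overlap, and RC48 replicate 1 was far above the other RC48 libraries. The means were 29.2 ± 1.26 and 55.6 ± 22.9 CPM (SD, n = 3), a log2 fold change of 0.93 (SE 0.27). After the GC correction the levels were 31.1, 32.9 and 31.1 CPM in Control and 63.6, 41.3 and 43.6 CPM in RC48, which still did not overlap, and the log2 fold change was 0.65. Without RC48 replicate 1 the uncorrected log2 fold change was 0.53.

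PSMB8, the inducible counterpart of PSMB5, differed less. It was measured at 82.1, 80.8 and 70.1 CPM in Control and at 117, 85.8 and 96.8 CPM in RC48, with means of 77.7 ± 6.58 and 99.7 ± 15.6 CPM (SD, n = 3). All RC48 libraries were above all Control libraries, RC48 replicate 2 by a small margin. The log2 fold change was 0.36 (SE 0.15), and with the GC correction it was 0.13, from 88.2, 86.6 and 76.8 CPM in Control to 92.6, 90.1 and 92.1 CPM in RC48. The corrected RC48 libraries were nearly equal and remained above the Control libraries.

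PSMB10, the inducible counterpart of PSMB7, followed the same course. Its Control libraries held 63.1, 63.4 and 51.3 CPM and its RC48 libraries 98.1, 64.9 and 83.1 CPM, so that RC48 replicate 2 was only just above the Control libraries. The means were 59.3 ± 6.93 and 82.0 ± 16.6 CPM (SD, n = 3) and the log2 fold change was 0.47 (SE 0.18). With the GC correction it was 0.14, and the lowest RC48 library (70.1 CPM) and the highest Control library (69.5 CPM) almost met.

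The activator subunits were the most abundant members and had small differences. PSME1 was at 307, 309 and 262 CPM in Control and at 348, 315 and 350 CPM in RC48, a log2 fold change of 0.21 (SE 0.12). After the GC correction PSME1 overlapped between the groups, with 280 to 328 CPM in Control and 290 to 335 CPM in RC48, and the log2 fold change was 0.02. PSME2 was at 233, 232 and 199 CPM in Control and at 336, 242 and 270 CPM in RC48, a log2 fold change of 0.35 (SE 0.15). Its corrected levels were 223 to 254 CPM in Control and 253 to 259 CPM in RC48, which overlapped at their edges, and the log2 fold change was 0.08. Neither activator gene thus kept groups that did not overlap once the GC trend was removed.

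**Figure D1:**
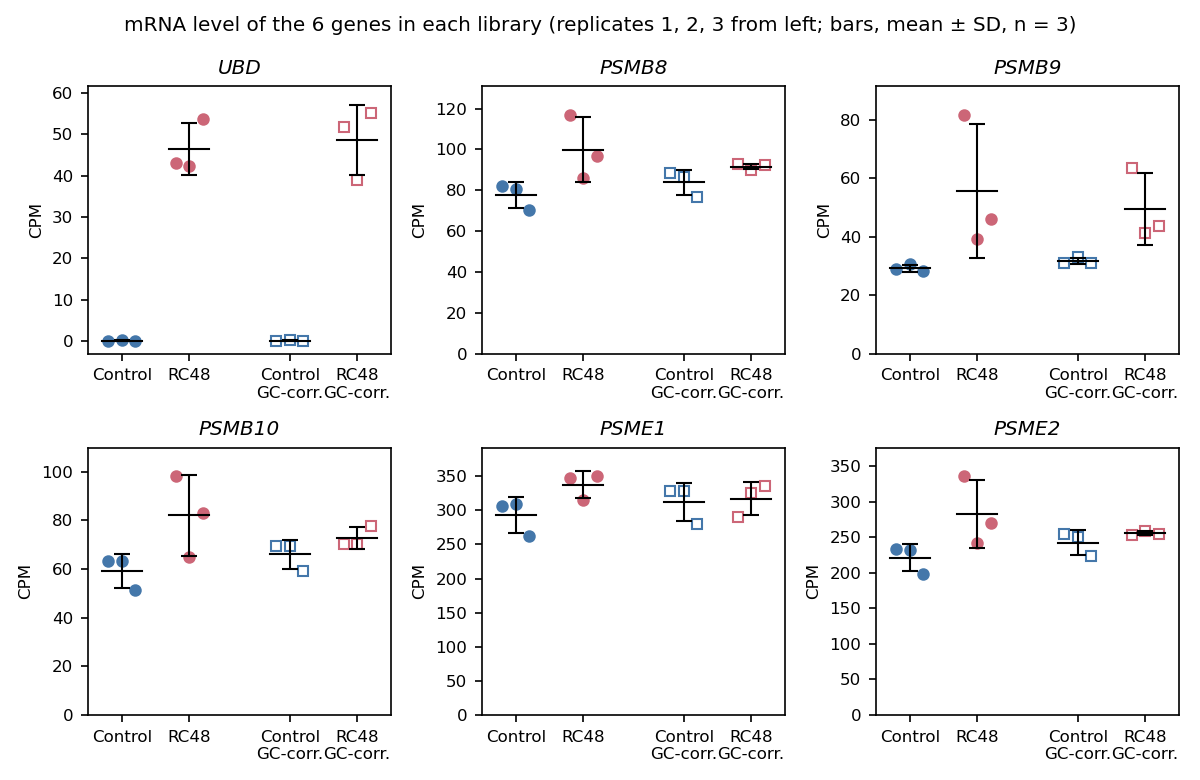
CPM of each member in each library (vertical axis, from 0 or just below it), as TMM-scaled values (filled circles) and after the GC correction (open squares), with replicates 1, 2 and 3 from left to right and bars for the mean ± SD of 3 libraries. UBD is at 0 to 0.232 CPM in Control and 42.4 to 53.7 CPM in RC48, PSMB9 is highest in RC48 replicate 1 at 81.8 CPM, and the corrected PSME1 groups overlap.

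In CPM, all 6 members had every RC48 library above every Control library, as did 17.4% of all genes tested. After the GC correction 4 of 6 did (UBD, PSMB8, PSMB9 and PSMB10), against 14.3% of all genes. At a Benjamini-Hochberg adjusted p under 0.05 in edgeR (quasi-likelihood F-test), 1 of 6 was called, UBD, where 1.98% of all genes were called higher in RC48 and 0.230% lower. With the GC correction 2 of 6 were called, UBD and PSMB9, where 4.44% of all genes were called higher and 3.72% lower. As the contrast chose the members, nothing is read from these counts. The median log2 fold change of all genes tested was 0.02, and -0.03 after the GC correction.

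Compared per length, in TPM, the order of the levels in Control was PSME2 (816 ± 26.6), PSME1 (781 ± 27.5), PSMB8 (164 ± 6.11), PSMB10 (157 ± 9.97), PSMB9 (73.2 ± 2.59) and UBD (0.29 ± 0.351; SD, n = 3). The ranges over the Control libraries overlapped between PSME2 and PSME1 and between PSMB8 and PSMB10. Within each Control library, however, PSME2 was above PSME1 and PSMB8 above PSMB10. In RC48 the order was PSME2 (910 ± 17.8), PSME1 (815 ± 67.8), PSMB10 (195 ± 17.8), PSMB8 (192 ± 8.6), UBD (124 ± 24.2) and PSMB9 (123 ± 35.3; SD, n = 3). UBD had moved from the end of the order to the level of PSMB9, with libraries at 102 to 150 TPM against 98.7 to 163 TPM, while PSMB10 and PSMB8 again overlapped. The TPM of RC48 replicate 2 was computed from its counts.

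Each inducible subunit was also set against the standard subunit whose place it takes, as its share of their summed TPM, a ratio of mRNA levels and not of assembled proteasomes. PSMB8 made up 32.6%, 31.7% and 31.2% of PSMB8 plus PSMB5 in Control replicates 1, 2 and 3, and 30.6%, 32.3% and 32.0% in RC48 replicates 1, 2 and 3. The groups overlapped, with means of 31.8 ± 0.747% and 31.7 ± 0.932% (SD, n = 3). PSMB10 made up 28.1%, 28.6% and 28.1% of PSMB10 plus PSMB7 in Control and 29.7%, 25.6% and 30.7% in RC48, which overlapped as well. PSMB9 made up 10.9%, 11.6% and 12.5% of PSMB9 plus PSMB6 in Control and 16.4%, 14.1% and 12.7% in RC48. The groups did not overlap but came close, and the mean share was 2.71 percentage points higher in RC48. These shares were not corrected for GC content. In GC-corrected CPM, PSMB9 and PSMB6 were at 31.1 and 155 in Control replicate 3 and at 43.6 and 220 in RC48 replicate 3. Their ratio was slightly lower in the latter, so it overlapped between the groups after the correction. PSME1 made up 48.8% to 49.1% of PSME1 plus PSME2 in Control and 44.2% to 48.8% in RC48, the lowest in RC48 replicate 1.

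**Figure D2:**
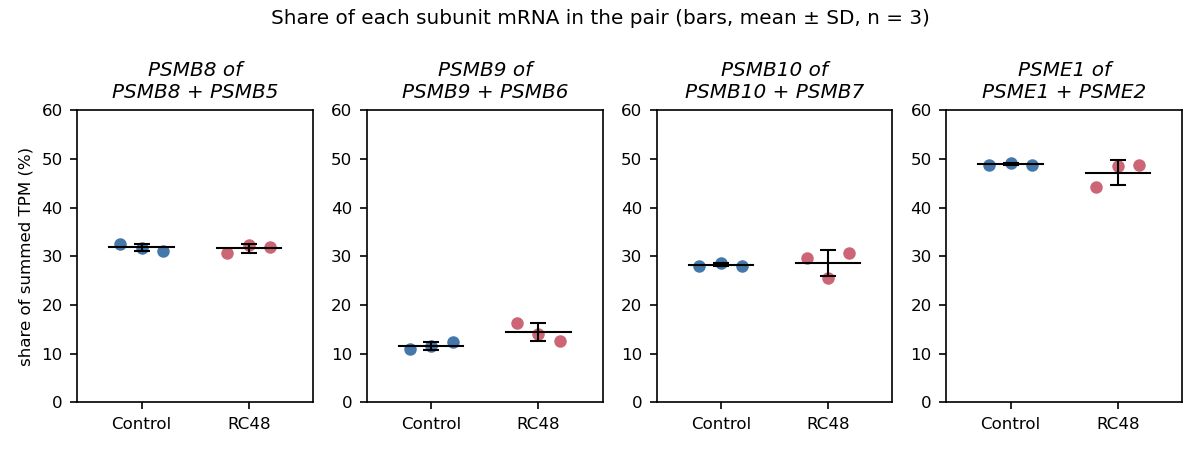
Share of the summed TPM (%, without the GC correction) that each inducible subunit took beside its standard counterpart, and PSME1 beside PSME2, in each library (points, replicates from left to right) with the mean ± SD of 3 libraries. The PSMB8 and PSMB10 shares overlap between Control and RC48, and the PSMB9 share runs from 10.9% to 12.5% in Control and from 12.7% to 16.4% in RC48.

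None of the standard subunits passed the test. The log2 fold change was 0.40 for PSMB5 (SE 0.16, adjusted p = 0.252), 0.58 for PSMB6 (SE 0.22, adjusted p = 0.223) and 0.43 for PSMB7 (SE 0.14, adjusted p = 0.192, edgeR). With the GC correction the values were 0.23, 0.34 and 0.35, beside 0.13 for PSMB8, 0.65 for PSMB9 and 0.14 for PSMB10, and again none of the standard subunits was called. PSMB6 was at 170, 169 and 143 CPM in Control and 318, 173 and 230 CPM in RC48, the highest value again in RC48 replicate 1. PSME3, which encodes the related activator PA28 gamma of the nucleus, had a log2 fold change of -0.11 (SE 0.12, adjusted p = 0.562).

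Of 42 other proteasome genes, which covered the core and regulatory particles, other activators and inhibitors, assembly chaperones and the transcription factor gene NFE2L1, 0 were called by edgeR's quasi-likelihood test, beside 1.98% of all genes called higher and 0.230% called lower. At an unadjusted p under 0.05 there were 13, where 2499 of all 13055 genes tested were under it. DESeq2 called 1, where it called 744 of all 13055 genes. Their median log2 fold change was 0.28, from -0.29 (PSMG1, an assembly chaperone) to 0.66 (PSMD4, a ubiquitin receptor), where the median of all genes was 0.02. In 21 of them every RC48 library was above every Control library in CPM, as in 17.4% of all genes tested, and in 0 below. With the GC correction the median was 0.24 and 1 gene was called, PSMG3, an assembly chaperone, with a log2 fold change of -0.41 (adjusted p = 0.0168). The count of called genes was 3 without RC48 replicate 1 and 17 without RC48 replicate 2, where 897 of 13147 and 3726 of 13185 genes tested were called. PSMB8, PSMB10, PSME1 and PSME2 lay within the range of these 42 genes, and PSMB9 lay above it without the GC correction. With the correction PSMB9, at 0.65, lay within the range as well, below SEM1 at 0.95 and PSMA5 at 0.82.

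**Figure D3:**
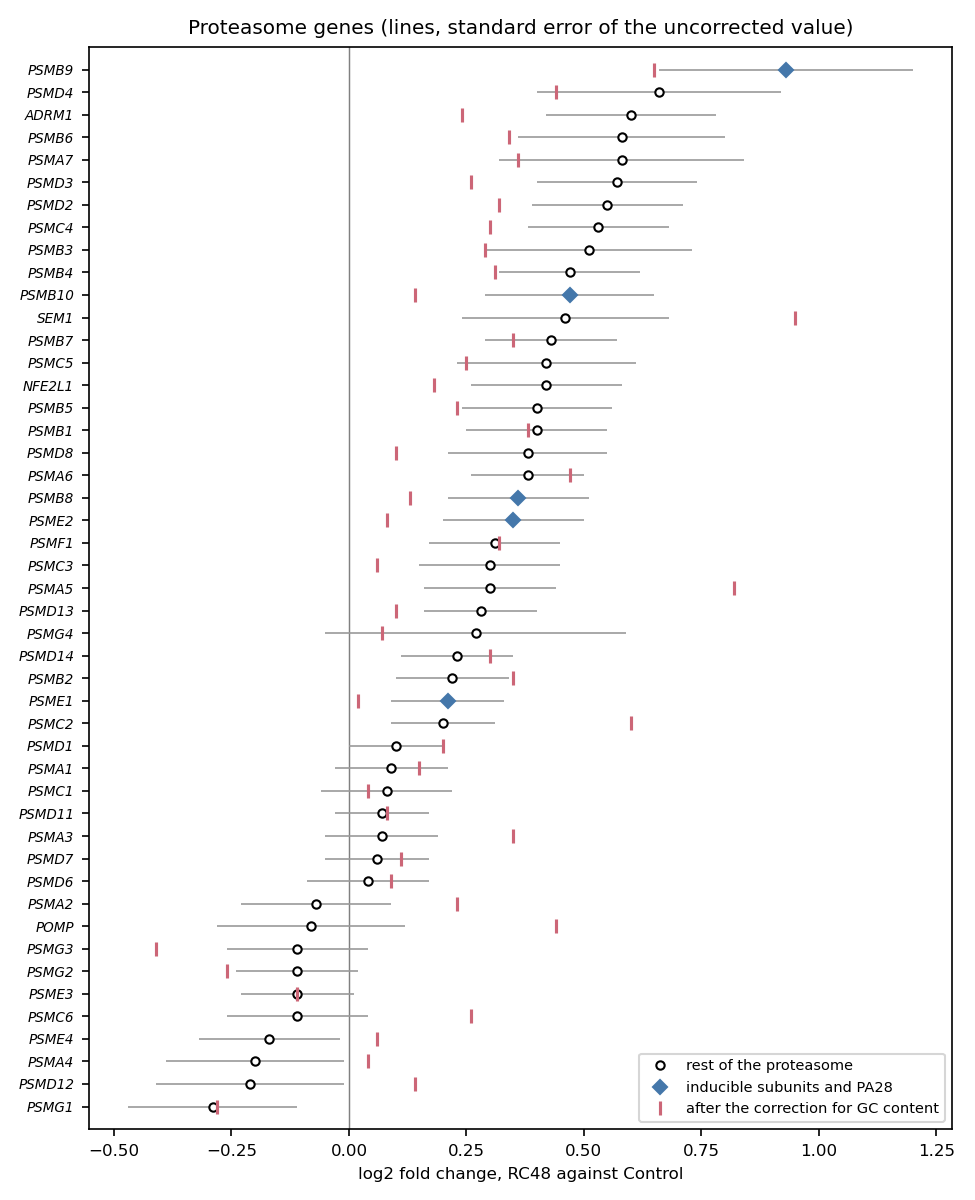
Log2 fold change, RC48 against Control, of PSMB8, PSMB9, PSMB10, PSME1 and PSME2 (diamonds) and of 42 other proteasome genes (circles), with the SE as a line and the value after the GC correction as a vertical tick. PSMB9 is highest at 0.93, the other members lie between 0.21 and 0.47 among the remaining genes, and the corrected values of PSMB8, PSMB10, PSME1 and PSME2 are 0.13, 0.14, 0.02 and 0.08.

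Among 20 genes of FAT10 conjugation, FAT10 binding and other ubiquitin-like modifiers, 2 rose and 0 fell, beside 1.98% and 0.230% of all genes, and the median log2 fold change was 0.22. ISG15, the interferon-induced ubiquitin-like modifier, was at 38.0, 39.2 and 31.5 CPM in Control and 107, 62.6 and 80.3 CPM in RC48, a log2 fold change of 1.20 (SE 0.21, adjusted p = 0.0325, edgeR). SQSTM1, the autophagy receptor p62 that binds FAT10, was at 505, 507 and 458 CPM in Control and 907, 822 and 928 CPM in RC48, a log2 fold change of 0.85 (SE 0.11, adjusted p = 0.00917, edgeR). The groups did not overlap in either gene. The enzymes that attach FAT10 did not pass the test, with log2 fold changes of -0.50 for UBA6 (SE 0.28, adjusted p = 0.313) and 0.28 for UBE2Z (SE 0.12, adjusted p = 0.258, edgeR). NUB1, which binds FAT10 and speeds its degradation, was at -0.11 (SE 0.16, adjusted p = 0.649, edgeR). With the GC correction ISG15 (0.84) and SQSTM1 (0.59) were again the called genes, where 4.44% of all genes were called higher and 3.72% lower. With Control replicate 1, 2 or 3 or RC48 replicate 3 left out, each alone, 0 genes of this list were called. Those settings called 71, 78, 68 and 93 of all genes. Without RC48 replicate 2 there were 11, of which 8 were higher and 3 lower, where 3726 of all 13185 genes tested were called.

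Of 17 genes that carry, trim or load the peptides made by the proteasome, or form MHC class I, 5 rose and 0 fell, beside 1.98% and 0.230% of all genes, with a median log2 fold change of 0.51. HLA-F rose by 1.17 on the log2 scale (SE 0.19, adjusted p = 0.0246) and HLA-B, a classical class I heavy chain, by 0.95 (SE 0.13, adjusted p = 0.00979). TAP1, a transporter subunit, rose by 0.81 (SE 0.12, adjusted p = 0.0166) and TAPBP, the loading chaperone tapasin, by 0.70 (SE 0.13, adjusted p = 0.0349). B2M, the light chain, rose by 0.62 (SE 0.11, adjusted p = 0.0326, edgeR). TAP1 was at 92.3, 92.1 and 89.1 CPM in Control and 175, 142 and 162 CPM in RC48, and thus apart in every library. Reads of the HLA genes may be shared between near-identical copies, so their values are uncertain. NLRC5, the class I transactivator, was at 1.04 (SE 0.22, adjusted p = 0.066, edgeR), not past the threshold. It was called with the GC correction, under which 7 genes of the list were called, all of them higher, beside 4.44% of all genes, and the median was 0.38. The count was 0 with Control replicate 1, 2 or 3 or RC48 replicate 3 left out, each alone. Those settings called 71, 78, 68 and 93 of all genes. It was 8 without RC48 replicate 1, all higher, where 897 of 13147 genes tested were called. Without RC48 replicate 2 it was 13, of which 11 were higher and 2 lower, where 3726 of 13185 genes tested were called.

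Among 25 genes of the signals known to induce the members, 23 were listed and 21 tested, of which 7 rose and 0 fell, beside 1.98% and 0.230% of all genes, with a median log2 fold change of 0.45. The genes of interferon gamma (IFNG) and interferon beta (IFNB1) were not among the genes listed in these libraries. IFNL1 had 2 counts in all Control and 2 in all RC48 libraries, and neither it nor IL6, with 1 and 11 counts, was tested. TNF, the gene of tumour necrosis factor, had 1 count in all Control libraries and 142 in all RC48 libraries (adjusted p = 0.00129), and LTB, the gene of lymphotoxin beta, had 0 and 600 counts (adjusted p = 0.000556, edgeR). No fold is given for them, as their Control counts do not carry one. Both are among the 7, and both passed the filter on low counts only through the RC48 libraries. Their p-values are therefore not read as support.

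RELB and NFKB2, the NF-κB subunits of the non-canonical pathway, rose more than any other called gene of this list that Control cells expressed. RELB was at 7.75, 9.68 and 7.65 CPM in Control and 82.5, 50.1 and 62.6 CPM in RC48, a log2 fold change of 2.96 (SE 0.22, adjusted p = 0.000637, edgeR). NFKB2 rose by 2.02 on the log2 scale (SE 0.19, adjusted p = 0.00181), while RELA was at 0.16 (SE 0.11, adjusted p = 0.371, edgeR). IRF9, the DNA-binding subunit of the type I interferon complex, rose by 1.62 (SE 0.18, adjusted p = 0.00446), and the other called genes were STAT2 (0.70, adjusted p = 0.0346) and STAT3 (0.61, adjusted p = 0.044, edgeR). IRF1 was at 127, 127 and 116 CPM in Control and 182, 169 and 182 CPM in RC48, a log2 fold change of 0.53 (SE 0.11, adjusted p = 0.0583, edgeR). It was called with the GC correction, at 0.35 (adjusted p = 0.0493), where 11 genes of the list were called, all of them higher, beside 4.44% of all genes, and the median was 0.29. The count was 4 without Control replicate 3, 11 without RC48 replicate 1 and 12 without RC48 replicate 2, against 68, 897 and 3726 of all genes. All were higher in RC48 except 1 of the 12. When only genes with at least 10 counts in every library were tested it was 4, against 228 of all genes.

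**Figure D4:**
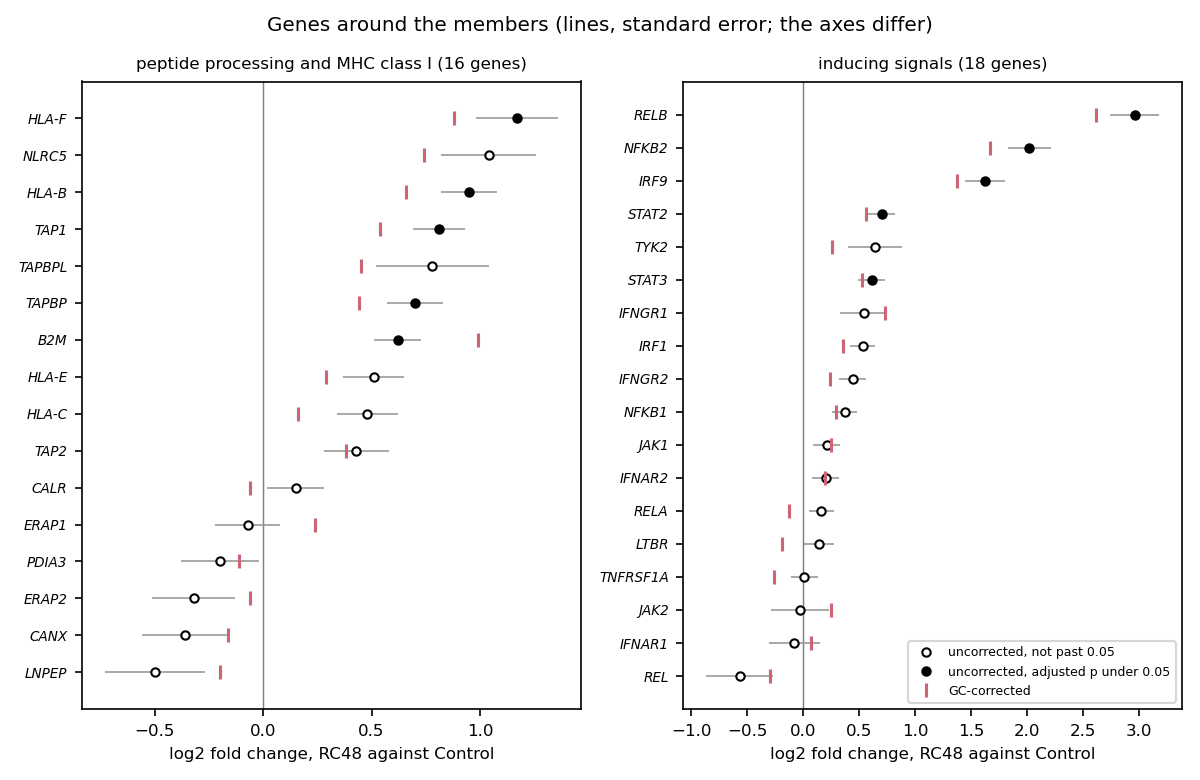
Log2 fold change, RC48 against Control, of 16 genes of peptide processing and MHC class I (left) and of 18 genes of the inducing signals (right, without LTB and TNF, among others), with the SE as a line, filled circles for an adjusted p under 0.05 and ticks for the value after the GC correction. Called genes are at 0.62 to 1.17 on the left and reach 2.96 (RELB) on the right, and the horizontal axes differ.

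Leukocytes also express LTB, HLA genes and the immunoproteasome, so their markers were looked at in the same libraries. Of 14 leukocyte markers, 11 were listed, and their summed level was 249 to 293 TPM in Control and 257 to 283 TPM in RC48, most of it LCP1 with 220 and 203 TPM. MS4A1 and TYROBP were not listed or at 0, and PTPRC, the defining marker CD45, had 0 counts in all Control and 2 in all RC48 libraries. ITGAM had 5 and 188 counts (adjusted p = 0.0074) and CD74 34 and 92 counts (adjusted p = 0.0475, edgeR), and their part in the results above was not tested. ITGAM passed the filter on low counts only through the RC48 libraries. The summed level was 213 to 242 and 158 to 238 TPM for fibroblast markers (5 of 6 listed), and 7.06 to 8.15 and 4.99 to 6.08 TPM for endothelial markers (5 of 5). In a bulk sample, more RNA per cell and more cells that express a gene cannot be told apart.

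The chromosomal neighbours of the members, the 3 listed genes on each side, gave a mixed picture. TAP1 lies between PSMB8 and PSMB9, 530 bases from the former and 488 bases from the latter. Its rise of 0.81 stood beside log2 fold changes of 0.36 and 0.93 in these members, and TAP2, on the other side of PSMB8, was at 0.43 (adjusted p = 0.209, edgeR). Farther out, HLA-DQB1 rose by 1.18 on the log2 scale (SE 0.19, adjusted p = 0.0207, edgeR), and HLA-DOB, HLA-DMA and BRD2 were not called, at 0.19, 0.12 and 0.05. HLA-DMB, with 16 and 23 counts, was not tested.

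IRF9 lies 14655 bases from PSME2 and rose by 1.62 (adjusted p = 0.00446, edgeR), while RNF31, 265 bases from PSME2 and encoding a subunit of the linear ubiquitin ligase, was at 0.59 (adjusted p = 0.191). EMC9, 3 bases from PSME1, was at 0.37 (adjusted p = 0.402), REC8 at 1.06 (adjusted p = 0.0781), and PCK2, DCAF11 and FITM1 at 0.27, 0.24 and 0.51, none of them called. Around UBD, the olfactory receptor genes OR2B3, OR12D2 and OR2H1 had at most 3 counts in a group, MOG had 1 and 1 and ZFP57 had 1 and 6 counts, and GABBR1 was at 0.09 (adjusted p = 0.788, edgeR). Around PSMB10, PSKH1, CTRL, LCAT and SLC12A4 were at 0.59, 0.64, 0.87 and 0.83 and not called, and NRN1L and DPEP3 were not tested. With the GC correction REC8 (0.76, adjusted p = 0.044) and SLC12A4 (0.46, adjusted p = 0.0209, edgeR) were called, where 4.44% of all genes were called higher.

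Other tested genes with the same promoter letters were counted too. Of 424 with an ISRE match, 29 (6.84%) rose and 0 fell, with a median log2 fold change of 0.04. Of 1828 with an NF-κB match 46 (2.52%) rose and 4 fell, and of 913 with a GAS match 24 (2.63%) rose and 2 fell, beside 1.98% of all genes. Among 915 genes with the letters TATAAA, which served for comparison, 44 (4.81%) rose and 4 fell. Of 19 genes other than the members with the exact letters GAAAGCGAAA, 1 rose, TAP1, and its neighbour TAP2, RNF31 and PSMG4 were among the rest.

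The genes whose pattern was most like that of a member, by Pearson's r of log2 CPM over the 6 libraries, differed between UBD and the rest. For UBD they were NLRP7 (0.998), HBEGF (0.997) and CXCL3 (0.997), with log2 fold changes of 2.56, 0.32 and 5.03. Pearson's r leaves out the size of a difference, and HBEGF was not called (adjusted p = 0.216, edgeR). For PSMB9 they were FADS3, PNPLA6 and TPRA1 (each 0.999), whose transcripts are 62.6%, 63.7% and 62.5% GC. For PSMB8 they were CDC34, RNF10 and SMUG1, for PSMB10 CLPTM1, UNC93B1 and RAB34, for PSME1 VRK3, RRAGA and SEC61G, and for PSME2 MAP2K2, SH3BGRL3 and CERS2, with r of 0.995 or more. An r above 0.9 was common, with 557 genes for UBD, 374 for PSME1 and 1762 to 2240 for the other members. Among the members r was 1.00 between PSMB8 and PSME2 and 0.99 between PSMB8 and PSMB10, and 0.73 to 0.79 between UBD and the others. All these values share the same 6 libraries and their GC trends, and are given as a description.

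The differences of the members were computed under each way of processing, and their direction, which the choice of the members fixed, is no sign of stability. PSMB9 was between 0.53 and 1.13 and PSMB8 between 0.13 and 0.46 over these settings. PSMB10 was between 0.14 and 0.61, PSME2 between 0.08 and 0.45, and PSME1 between 0.02 and 0.25. The GC correction gave the lowest value of PSMB8, PSMB10, PSME1 and PSME2, and leaving out RC48 replicate 1 gave that of PSMB9. Without that library the value was 8.84 for UBD, 0.23 for PSMB8, 0.31 for PSMB10, 0.18 for PSME1 and 0.20 for PSME2. UBD was between 6.61, on the log2(TPM+1) scale, and 10.31, without Control replicate 2.

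**Figure D5:**
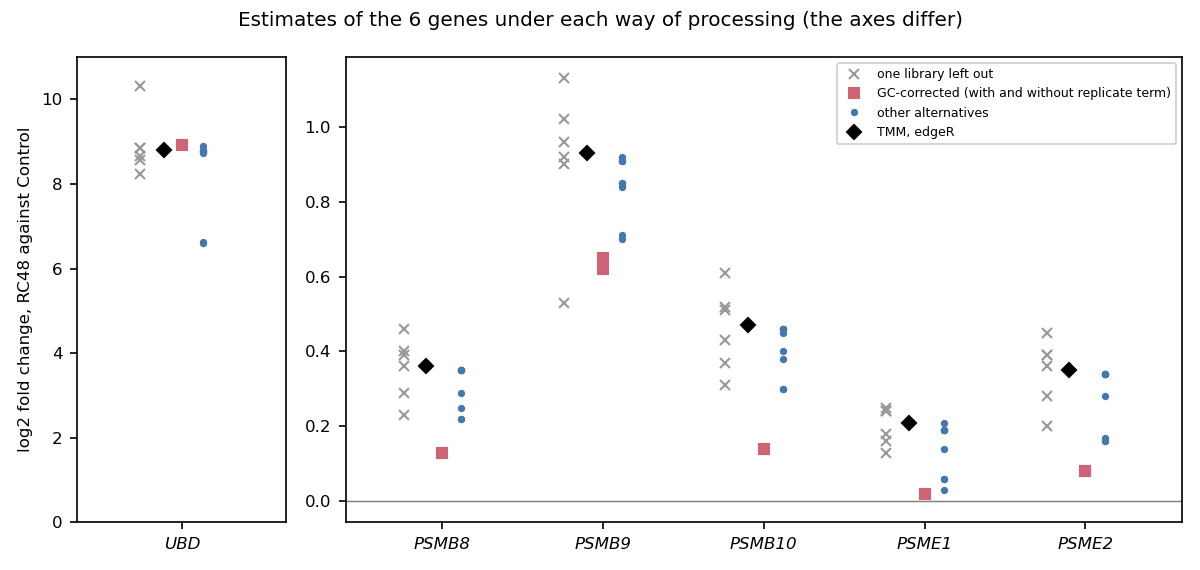
Log2 fold change, RC48 against Control, of each member under each way of processing (black diamonds, edgeR with TMM; crosses, 1 library left out; squares, GC correction with and without a term for the replicate number; dots, other alternatives), with UBD on an axis of its own. UBD lies between 6.61 and 10.31, PSMB9 between 0.53 and 1.13, and PSME1 comes closest to 0 at 0.02.

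Limits of the mapping touch some members. UBD, PSMB8 and PSME2 overlap OR2I1, PSMB8-AS1 and MIR7703 in the annotation, none of which was listed, and whether the counting used strand is not given in the sources used here. PSME2 has 6 pseudogenes named after it and UBD 1, so their counts may be shared with such copies.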

How the data were processed

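Total RNA of 3 Control and 3 RC48-exposed libraries was sequenced by BGI. The authors filtered reads with SOAPnuke, mapped them to gene sequences with Bowtie2 and deposited the estimated counts per gene from RSEM, not normalized. The authors also deposited TPM values, normalized for length and depth. The submitters' processing notes name hg38, Bowtie2, RSEM and limma. Versions and annotation are not given in the sources used here. A deposited TPM of RC48 replicate 2 was not used here, and its TPM was derived by dividing its counts by lengths inferred from counts and TPM elsewhere. For RC48 replicate 3, TPM derived in this way differed from the deposited one by a median of 0.0367 (absolute log2) in 11982 genes with 20 or more counts and 1 or more TPM.

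Estimated counts were rounded, filtered with filterByExpr, which all 6 members passed, and scaled by TMM. UBD, TNF, LTB and ITGAM passed this filter only through the RC48 libraries, where they were high. edgeR's quasi-likelihood F-test was run over 13055 genes, with p-values adjusted after Benjamini and Hochberg (threshold 0.05; R 4.3.3, edgeR 4.0.16, limma 3.58.1). The SE of an edgeR value was derived from this test, as the absolute log2 fold change divided by the square root of F. The GC correction used a loess trend (span 0.3) of each library's log2 CPM on the GC content of 1 GENCODE v29 transcript per gene, as an offset. Other alternatives were DESeq2 1.42.0, unfiltered genes, a minimum of 10 counts in every library, RLE factors or plain library sizes as scaling, limma on log2(TPM+0.1) and on log2(TPM+1), the latter over 5 or all 6 libraries, the replicate number as a block, also together with the GC correction, and omission of each library. The procedure was tested on counts simulated with a common dispersion (0.0333) and without a GC trend. That test therefore does not cover the unequal GC trends and replicate spread of these libraries.

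The members, lists and tests were chosen with earlier results of these data known. Named were the members, PSMB5, PSMB6 and PSMB7, up to 5 called genes of each list per direction, IFNG, IFNB1, TNF, IRF1 and IRF9, the 3 most alike genes of each member and the 3 listed neighbours on each side. Other single genes, among them PSMD4, PSMG1, PSMG3, PSME3, SEM1, PSMA5, KRT20, NLRC5, RELA, STAT2 and STAT3, were named after their values were seen. Some genes of the lists enter the counts but are not reported here singly. Gene order, positions and promoters came from RefSeq (GRCh38.p14), where 16360 of 16390 genes were found. The prior count of log2 CPM was 2. Precision rests on 3 libraries per group, and intervals cover counting error only.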

Additional observations from a re-analysis of the deposited data

How the results depend on the processing

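The number of genes called in all, 288 in the analysis reported, was 744 with DESeq2, 2894 with limma on log2(TPM+1) over 5 libraries, 1066 with the GC correction, 753 with the term for the replicate number and the GC correction, and 68 to 3726 with 1 library left out. The log2 fold change of UBD was 6.62 and 6.61 with limma on log2(TPM+1) over 5 and 6 libraries, and 8.24 to 10.31 with 1 library left out, highest without Control replicate 2. PSME1 was at 0.03 and 0.06 with limma on log2(TPM+1) over 5 and 6 libraries and at 0.06 on log2(TPM+0.1). With the GC correction, with or without the term for the replicate number, PSMB8 was at 0.13, PSMB10 at 0.14, PSME1 at 0.02 and PSME2 at 0.08. The cause of these shifts was not tested.

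With limma on log2(TPM+1) over 5 libraries, 9 of the other proteasome genes were called, 8 higher and 1 lower in RC48. Of the FAT10 partners and other modifiers 8 were called, 5 higher and 3 lower. Of the genes of peptide processing and MHC class I 14 were called, 11 higher and 3 lower. Over all 13055 genes this setting called 821 higher and 2073 lower. DESeq2 called 1 of the other proteasome genes and 8 of peptide processing and MHC class I, where it called 744 of all 13055 genes. The GC correction gave 1 and, for the inducing signals, 11 called genes, and at least 10 counts in every library left 4 of the inducing signals. With 1 library left out, the calls ran from 0 to 17 for the other proteasome genes, 0 to 11 for the FAT10 partners, 0 to 13 for peptide processing and MHC class I and 4 to 12 for the inducing signals. With at least 10 counts in every library UBD was not tested and has no value.

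The deviations of same-numbered libraries correlated at 0.00, -0.13 and 0.00, and 0 of 3 RC48 libraries correlated best with their own number. With 3 pairs and unequal GC trends, these values cannot tell whether same-numbered libraries were made together. With the replicate block 331 genes were called in all, and PSMB9 was at 0.85 and UBD at 8.80. With the replicate block and the GC correction 1 of the other proteasome genes was called, higher in RC48, whereas the 1 called with the GC correction alone was lower.

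Counts of at most 5 in all Control libraries limit the fold of UBD, and 3 libraries per group with unequal GC trends limit the differences of the other members.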
